A study of Homo sapiens with 6 samples.

Results

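Laminin-332 and the hemidesmosome are the structures by which basal keratinocytes hold on to the basement membrane, and 8 of their genes were examined: LAMA3, LAMB3, ITGA6, ITGB4, COL17A1, PLEC, DST and CD151. The genes were chosen for the proteins they encode, with earlier results of these data known, and all 8 were present among the 25349 genes of the count table and among the 14661 genes tested. The cells were SCC-9, an established human line derived from a tongue squamous carcinoma. The siE7 group (3 libraries) had received an siRNA directed at MKI67 exon 7 (MKI67 encodes the proliferation marker Ki67), and the siNC group (3 libraries) a nonspecific siRNA. In both groups the siRNA was given at 10 nM with a lipid reagent on day 0 and again on day 2, and the medium held fetal bovine serum and hydrocortisone at 400 ng/mL. Which of the siRNAs designed against exon 7 was used for these libraries is not given in the sources used here, and 1 cell line with 1 control siRNA stands behind the comparison. The question addressed was how RNA levels of these anchoring genes differed between siE7 and siNC.

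Laminin-332 is a laminin trimer that includes the alpha3 and beta3 chains, and it lies in the basement membrane as the main ligand of the hemidesmosome. The integrin alpha6beta4 binds it from the cell side together with the transmembrane collagen XVII, and the tetraspanin CD151 associates with the laminin-binding integrins. Inside the cell, plectin and the epithelial form of dystonin, both of the plakin family, tie the complex to keratin filaments. Hereditary loss of these proteins is known to cause skin blistering, and squamous carcinomas commonly make laminin-332 at their invading edge.

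RefSeq start sites on GRCh38.p14 were found for 5 of the 8 genes (LAMA3, LAMB3, ITGA6, COL17A1 and DST), and ITGB4, PLEC and CD151 were not matched. The 250 bases before a start are printed below for 1 start of each of the 5 genes, 5′ to 3′ on the strand of the gene. These 5 genes were lower in siE7, as was ITGB4. No window of PLEC or CD151, which did not pass the test, was at hand to compare, and a part of the motifs in the fall was not tested. Capitals mark matches, on either strand, to 4 motifs: AP-1 (TGANTCA), TEAD (GGAATG), the GC box (GGGCGG) and the TATA box (TATAAA). The LAMA3 window lay at chr18:23872770-23873019 (plus strand), inside the gene as annotated in GENCODE v44. The LAMB3 window lay at chr1:209652426-209652675 (minus strand), the ITGA6 window at chr2:172427086-172427335 (plus strand), the COL17A1 window at chr10:104085881-104086130 (minus strand) and the DST window at chr6:56954831-56955080 (minus strand), each just before the gene.
LAMA3: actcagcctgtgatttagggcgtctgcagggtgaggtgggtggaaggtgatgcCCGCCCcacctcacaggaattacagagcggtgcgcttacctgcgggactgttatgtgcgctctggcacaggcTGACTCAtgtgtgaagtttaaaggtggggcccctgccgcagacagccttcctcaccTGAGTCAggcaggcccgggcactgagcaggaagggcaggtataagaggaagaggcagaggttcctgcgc
LAMB3: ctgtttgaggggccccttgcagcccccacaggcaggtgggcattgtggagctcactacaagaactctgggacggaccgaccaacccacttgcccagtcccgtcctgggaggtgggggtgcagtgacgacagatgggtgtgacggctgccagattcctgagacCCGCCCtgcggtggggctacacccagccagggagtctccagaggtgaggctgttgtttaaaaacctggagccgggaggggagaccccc
ITGA6: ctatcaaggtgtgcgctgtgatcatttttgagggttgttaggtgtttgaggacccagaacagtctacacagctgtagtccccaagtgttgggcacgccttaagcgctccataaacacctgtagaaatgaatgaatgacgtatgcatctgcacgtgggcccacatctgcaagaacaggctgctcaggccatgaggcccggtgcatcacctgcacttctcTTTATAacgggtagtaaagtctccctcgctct
COL17A1: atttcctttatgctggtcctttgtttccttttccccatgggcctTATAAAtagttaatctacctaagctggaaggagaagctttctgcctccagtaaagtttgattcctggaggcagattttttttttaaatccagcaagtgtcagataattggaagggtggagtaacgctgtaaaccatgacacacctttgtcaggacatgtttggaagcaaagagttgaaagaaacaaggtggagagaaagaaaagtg
DST: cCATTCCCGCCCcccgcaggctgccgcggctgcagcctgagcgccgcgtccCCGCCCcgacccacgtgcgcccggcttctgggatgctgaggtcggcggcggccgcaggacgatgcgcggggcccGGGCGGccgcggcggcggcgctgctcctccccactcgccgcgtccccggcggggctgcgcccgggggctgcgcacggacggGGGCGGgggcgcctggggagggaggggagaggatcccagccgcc

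The LAMA3 window held 2 AP-1 matches, TGACTCA at 125 to 119 bases and TGAGTCA at 69 to 63 bases before the start, and 1 GC box. Of all 35116 windows of this length, 6.57% held an AP-1 match and 0.402% held 2 or more. The printed LAMB3 window held 1 GC box and no AP-1 match. Another LAMB3 start, inside the gene, had 1 AP-1 match at 67 to 61 bases and 1 GC box at 52 to 47 bases before it. GC boxes were common, with a match in 42.6% of all windows, and the DST window held 4 of them in a sequence of 82.8% G and C. Its TEAD match shared 1 base with a GC box, and TEAD matches stood in 11.9% of all windows. The ITGA6 window held a TATA box match at 32 to 27 bases before the start, on the strand opposite to the gene (TTTATA). The COL17A1 window held 1 on the strand of the gene, at 206 to 201 bases before the start. On either strand, 10.7% of all windows held this motif. The window of the other annotated start of ITGA6 held 3 GC boxes. The remaining LAMB3 window overlapped the printed one and held the same GC box. The other DST starts lay inside the gene, and their windows held none of the 4 motifs. Counts per gene do not show which start was used, so the printed DST window need not belong to the epithelial form. A match is a run of letters and not a measured binding site.

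**Figure D1:**
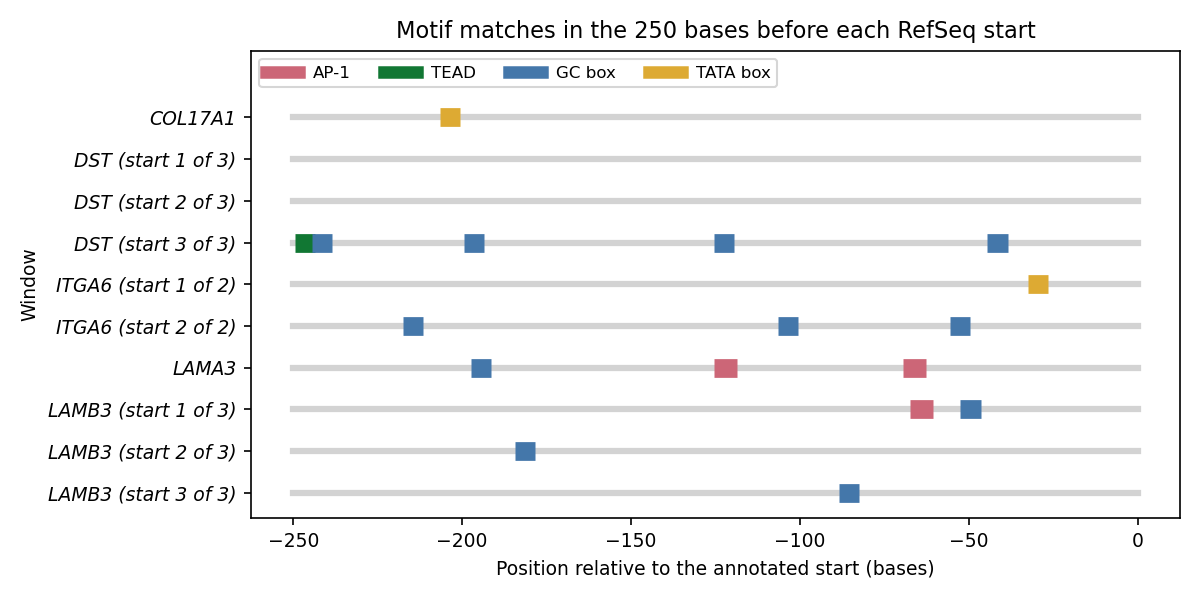
Motif matches in the 250 bases before each RefSeq start of LAMA3, LAMB3, ITGA6, COL17A1 and DST. The horizontal axis gives the position in bases relative to the start, each grey line is 1 window, and coloured blocks are matches. AP-1 matches (red) stand in the LAMA3 window and in the window of 1 of the 3 LAMB3 starts.

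The libraries held between 25608192 and 29550264 counts on genes, and DST, the lowest of the 8 genes, had between 645 and 1323 counts per library. The targeted gene MKI67 fell from 1059 ± 26.7 to 115 ± 8.70 CPM (TMM-scaled CPM, that is, counts relative to the scaled library size; mean ± SD, n = 3), a log2 fold change of -3.21. The label of an epithelial line was checked by markers, and all 8 basal squamous markers were measured, with a summed level of 20448 to 21838 CPM in siNC and 19010 to 24901 CPM in siE7. KRT14 held the largest part of that sum, and the markers moved both ways. KRT5, TP63, CDH1, EPCAM and SFN were lower, KRT17 was higher, and KRT14 and DSG3 did not pass the test. CDH1 went from 171 to 83.6 CPM, EPCAM from 62.5 to 36.7 CPM, SFN from 7077 to 4647 CPM and KRT17 from 1727 to 2799 CPM, and the part of these shifts in the results was not tested. Markers of endothelial cells, leukocytes and melanocytes summed to less than 1 CPM in every library, and the fibroblast list to 16.5 to 24.2 CPM, most of it COL1A1. The siE7 replicate 1 library stood apart. Over all tested genes it differed from siE7 replicates 2 and 3 by a root mean square of 0.619 to 0.621 on the log2 scale, against 0.379 between those replicates and 0.461 to 0.479 among the siNC libraries. For the 8 genes, values with and without it are given. Nothing in the labels says that the libraries of a group came from separate cultures, so p-values measure the spread between these libraries, which may be technical.

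In siE7, RNA of 6 of the 8 genes was lower than in siNC, and none was higher. LAMA3 and ITGA6 fell to 26.9% and 30.9% of the siNC level, LAMB3, DST, ITGB4 and COL17A1 to between 52.2% and 62.1%, and PLEC and CD151 did not pass the test. The test was the quasi-likelihood F-test of edgeR across all genes, with a Benjamini-Hochberg adjusted p under 0.05. By this rule 16% of all tested genes were lower and 18% higher in siE7. With a log2 fold change beyond 1 as well, which makes a differentially expressed gene (DEG), LAMA3 and ITGA6 were called lower, against 4.84% of all genes lower and 7.38% higher. The median log2 fold change of the 8 genes was -0.81, beside 0.08 over all tested genes. In 6 of the 8 genes every siE7 library lay below every siNC library, which held for 22.7% of all tested genes, while 24.9% had the reverse order and none of the 8 genes did. Together the 8 genes took 1.32% to 1.43% of the counts of the siNC libraries and 0.875% to 1.13% of those of the siE7 libraries. In bulk samples, fewer cells with a transcript and less RNA per cell cannot be told apart.

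**Figure D2:**
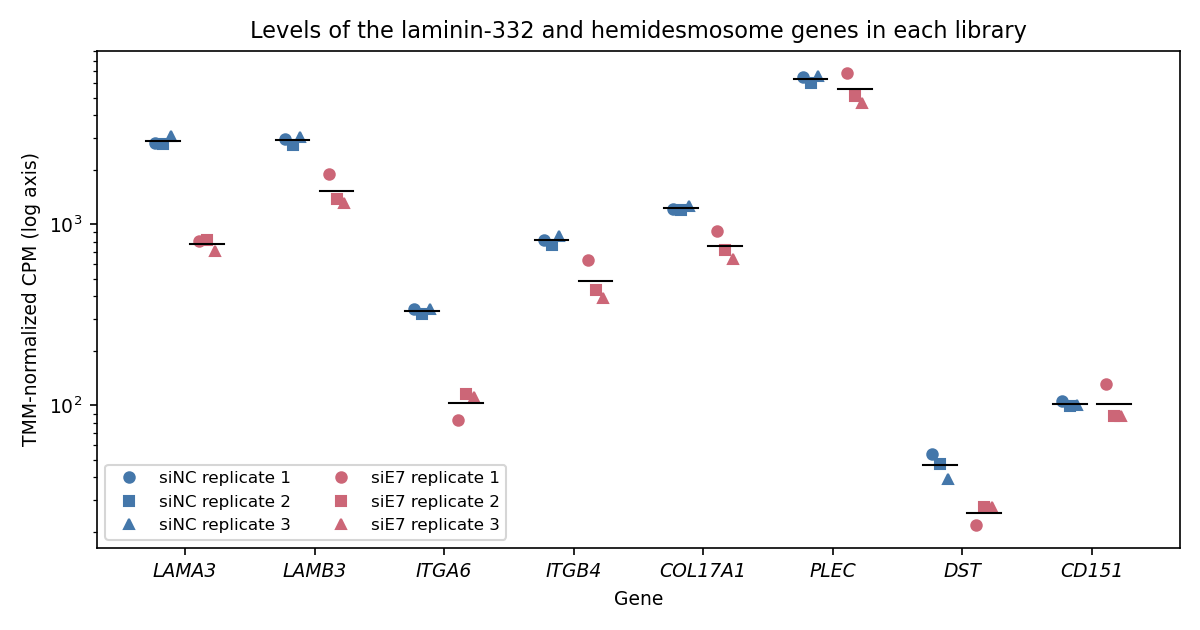
TMM-scaled CPM (logarithmic vertical axis) of the 8 genes in each library, with siNC in blue and siE7 in red. Marker shapes give the replicate number and horizontal bars the group means. All siE7 points of LAMA3, LAMB3, ITGA6, ITGB4, COL17A1 and DST lie below all siNC points, and those of PLEC and CD151 overlap with siNC.

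Among the chains of laminin-332, LAMA3 encodes alpha3, the chain that carries the binding site for the integrins. LAMA3 (ENSG00000053747, chr18:23689453-23956222, plus strand) was counted at 2798, 2786 and 3080 CPM in siNC replicates 1 to 3 and at 805, 819 and 709 CPM in siE7 replicates 1 to 3. The siE7 libraries lay far below and close together. This gave a log2 fold change of -1.89 (SE 0.111, edgeR adjusted p = 9.4e-07), and 0.812% of all tested genes had a lower one. Without siE7 replicate 1 it was -1.98. The counts are per gene, so the long and short forms of LAMA3 are not told apart. LAMB3 encodes beta3, a chain that joins alpha3 in the coiled coil of the trimer. LAMB3 (ENSG00000196878, chr1:209614870-209652425, minus strand) was counted at 2971, 2747 and 3035 CPM in siNC and at 1893, 1372 and 1306 CPM in siE7. All siE7 values were lower, with replicate 1 nearest to siNC. LAMB3 thus had a log2 fold change of -0.94 (SE 0.143, adjusted p = 5.6e-04), just short of the limit for a DEG, and it was -1.18 without siE7 replicate 1.

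Per kilobase of exon, the siNC levels were 199 CPM for LAMA3 and 628 CPM for LAMB3, and the siE7 levels were 53.7 and 328 CPM. Per kilobase of the canonical transcript, the siNC levels were 271 and 727 CPM. The size of this gap depends on which form of LAMA3 was made, which the counts do not show. The count of LAMA3 relative to LAMB3 in the same library, which no scaling of libraries can move, was 0.942, 1.01 and 1.01 in siNC and 0.425, 0.597 and 0.543 in siE7. On the log2 scale the mean ratio was -0.02 ± 0.06 in siNC and -0.95 ± 0.25 in siE7, a difference of -0.94 with no overlap (two-sided exact permutation test, p = 0.1, the smallest that 3 against 3 libraries can give).

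The receptor integrin alpha6beta4 pairs the products of ITGA6 and ITGB4. ITGA6 encodes the laminin-binding alpha6 chain, which can also pair with beta1. ITGA6 (ENSG00000091409, chr2:172427354-172506459, plus strand) was counted at 341, 319 and 339 CPM in siNC and at 82.5, 115 and 111 CPM in siE7. The groups were far apart, and siE7 replicate 1 was the lowest library. The log2 fold change was -1.70 (SE 0.137, adjusted p = 8.3e-06), and it lay between -1.79 and -1.62 when any 1 library was left out, with -1.62 without siE7 replicate 1. ITGB4 encodes beta4, whose long cytoplasmic tail recruits plectin. ITGB4 (ENSG00000132470, chr17:75721328-75757818, plus strand) was counted at 816, 770 and 860 CPM in siNC and at 632, 434 and 392 CPM in siE7. The groups did not overlap, but here siE7 replicate 1 was the highest of its group. The log2 fold change was -0.75 (SE 0.162, adjusted p = 0.0047), and -1.04 without that library, which would make ITGB4 a DEG.

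Counts of ITGA6 relative to ITGB4 were 0.418, 0.414 and 0.394 in siNC and 0.131, 0.265 and 0.282 in siE7. The mean log2 ratio went from -1.29 ± 0.05 to -2.23 ± 0.62, a difference of -0.93 (two-sided exact permutation test, p = 0.1, the smallest possible). Its size rested in part on siE7 replicate 1, without which the difference was -0.58. The ratio of ITGA6 to ITGB1, the gene of its other partner, moved by -1.08 on the log2 scale, untested. Both partners of alpha6 were thus lower by less than ITGA6 itself in terms of the fitted values, with ITGB1 at -0.59.

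**Figure D3:**
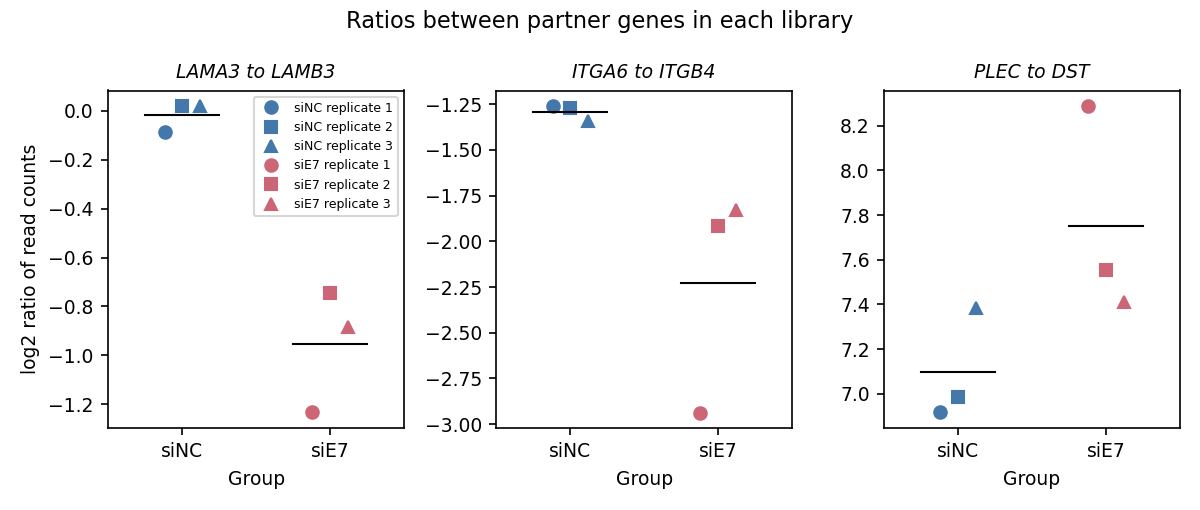
Log2 ratio of the read counts of LAMA3 to LAMB3, ITGA6 to ITGB4 and PLEC to DST in each library. Marker shapes give the replicate number and bars the group means. The siE7 values of the first 2 ratios lie below all siNC values and those of PLEC to DST above, with siE7 replicate 1 farthest from siNC in each panel.

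COL17A1 encodes collagen XVII, also known as BP180, which spans the membrane of the hemidesmosome and reaches laminin-332 with its ectodomain. COL17A1 (ENSG00000065618, chr10:104031286-104085880, minus strand) was counted at 1212, 1195 and 1262 CPM in siNC and at 917, 722 and 639 CPM in siE7. All siE7 values were lower than all siNC values. Its log2 fold change was -0.69 (SE 0.134, adjusted p = 0.0026), and -0.91 without siE7 replicate 1. COL17A1 kept nearly the same ratio to ITGB4, whose product it binds: the log2 ratio was 0.59 ± 0.04 in siNC and 0.66 ± 0.11 in siE7, a difference of 0.07 that was not tested.

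Of the plakins that join the complex to keratins, PLEC encodes plectin and DST encodes dystonin, whose epithelial form is BP230. PLEC (ENSG00000178209, chr8:143915153-143976734, minus strand) was counted at 6470, 6026 and 6542 CPM in siNC and at 6807, 5131 and 4694 CPM in siE7. The groups overlapped, since siE7 replicate 1 was the highest of all 6 libraries and the other siE7 libraries were the lowest. The log2 fold change was -0.19 with a 95% interval of -0.50 to 0.11 (adjusted p = 0.30), and without siE7 replicate 1 it was -0.43 (adjusted p = 1.1e-07). The interval leaves room for a moderate fall and for a slight rise. DST (ENSG00000151914, chr6:56457987-56954830, minus strand) was counted at 53.6, 47.5 and 39.2 CPM in siNC and at 21.8, 27.3 and 27.6 CPM in siE7. The groups were separate, although siNC varied more than for the other genes in relative terms. Its log2 fold change was -0.87 (SE 0.152, adjusted p = 0.0013), and -0.83 without siE7 replicate 1. DST has several forms that counts per gene do not separate.

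PLEC outnumbered DST by 121, 127 and 167 to 1 in the siNC counts and by 313, 188 and 170 to 1 in siE7. The mean log2 ratio was 7.10 ± 0.25 in siNC and 7.75 ± 0.47 in siE7, a difference of 0.66 (two-sided exact permutation test, p = 0.1, the smallest possible). Without siE7 replicate 1 the difference was 0.39. Per kilobase of all annotated exons, plectin RNA stood at 373 CPM and dystonin RNA at 0.971 CPM in siNC. Per kilobase of the canonical transcript these levels were 429 and 1.89 CPM, so the gap depends on the length used.

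CD151, a tetraspanin with 4 membrane spans, is known to associate with alpha3 and alpha6 integrins. CD151 (ENSG00000177697, chr11:832887-839831, plus strand) was counted at 105, 98.5 and 101 CPM in siNC and at 131, 87.4 and 87.1 CPM in siE7. The siE7 libraries lay on both sides of siNC, with replicate 1 above and replicates 2 and 3 below. The log2 fold change was 0.00 with a 95% interval of -0.34 to 0.34 (adjusted p = 0.99), and it was -0.28 without siE7 replicate 1 (adjusted p = 1.2e-04). The end of CD151 overlaps POLR2L on the opposite strand over 257 exon bases. The libraries were made with a stranded kit, but the use of strand in counting is not given in the sources used here. POLR2L had 34.9% as many counts as CD151. Among the other 7 genes, the largest such share was 3.15%, for ITGA6 and the antisense gene PDK1-AS1.

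Leaving out siE7 replicate 1 moved the genes in different directions. Relative to siE7 replicates 2 and 3, this library was higher by 0.61 on the log2 scale for ITGB4, 0.58 for CD151, 0.50 for LAMB3, 0.47 for PLEC and 0.43 for COL17A1. LAMA3 differed by 0.08, and ITGA6 and DST were lower by -0.45 and -0.33. Without this library all 8 genes passed the test as lower and 4 were DEGs (LAMA3, ITGA6, LAMB3 and ITGB4), but the number of genes past the test also rose across the table. Of the 15011 genes tested in that fit, 4422 were lower and 4343 higher, with 930 lower and 1289 higher DEGs. What set this library apart was not tested.

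**Figure D4:**
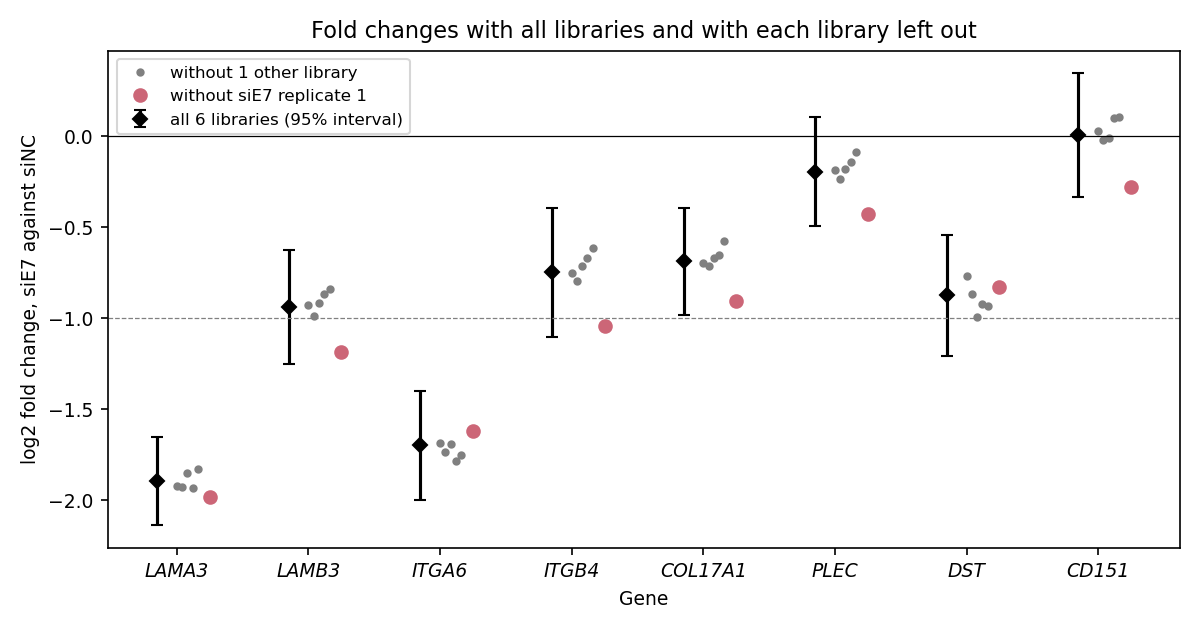
Log2 fold change of siE7 against siNC for the 8 genes. Black diamonds with bars are edgeR estimates from all 6 libraries with 95% intervals, the red point of each gene is the estimate without siE7 replicate 1 and grey points are estimates without 1 other library. The dashed line marks -1. LAMB3 and ITGB4 pass it only without siE7 replicate 1, and LAMA3 and ITGA6 lie below it in every case.

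Ordered by level per kilobase of exon in siNC, the 8 genes ran from LAMB3 (628 ± 32.5 CPM per kilobase) through PLEC (373 ± 16.5), LAMA3 (199 ± 11.5), COL17A1 (175 ± 5.02), ITGB4 (121 ± 6.65), ITGA6 (49.8 ± 1.84) and CD151 (26.04 ± 0.868) to DST (0.971 ± 0.1501). In siE7, LAMB3 (328 ± 69.2) and PLEC (326 ± 65.6) were level, followed by COL17A1 (109 ± 20.4), ITGB4 (71.9 ± 18.9) and LAMA3 (53.7 ± 4.14), where ITGB4 and LAMA3 differed by less than the SD of ITGB4. LAMA3 thus went from the third to the fifth place, and ITGA6 (15.4 ± 2.64) came below CD151 (26.1 ± 6.43). The places of ITGA6 and CD151 depend on the length used: per kilobase of the canonical transcript, CD151 stood above ITGA6 in siNC too, at 65.6 against 57.2 CPM per kilobase.

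For LAMA3, ITGA6 and COL17A1, the tested genes with the most similar profile over the 6 libraries were looked up among 9814 genes with a mean of at least 5 CPM. Likeness was the root mean square difference of log2 CPM, each gene centred on its siNC mean. Among the 3 nearest to LAMA3 were MYLK, the myosin light chain kinase (difference 0.095), and FST, which encodes the activin antagonist follistatin (0.116). Nearest to ITGA6 were CCNYL1 (0.069), FRMD6 (0.079) and SLC9A7 (0.088). Nearest to COL17A1 were HK1, a hexokinase (0.031), PXN, which encodes the focal adhesion protein paxillin (0.035), and UHRF1 (0.037). No other of the 8 genes was among the 3 nearest of these.

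The genes around the complex were counted in 6 lists, which were chosen with earlier results of these data known. By the same test 16% of all tested genes were lower and 18% higher. Of 9 genes of laminin chains outside laminin-332, 5 were tested, 2 were lower (LAMC1 and LAMB1), 1 was higher and 2 did not pass, with a median log2 fold change of -0.31. None of the 5 was a DEG. LAMC1, the common gamma1 chain, changed by -0.70 and LAMB1 by -0.50, while LAMB2 was higher by 0.47 (adjusted p = 0.023). The LAMB2 call was lost when any 1 of the siNC libraries was left out (adjusted p up to 0.096), and without siE7 replicate 1 the value was 0.25. LAMA5, the alpha chain of laminin-511, had a log2 fold change of -0.12 (adjusted p = 0.51), and without siE7 replicate 1 it was called lower, at -0.29 (adjusted p = 3.0e-04).

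Of 15 basement membrane partners 11 were tested, with 5 lower and 2 higher and a median of -0.34. COL7A1 encodes the anchoring fibril collagen that laminin-332 binds, and its values of 338, 327 and 341 CPM in siNC and 421, 357 and 339 CPM in siE7 overlapped, with a log2 fold change of 0.15 and a 95% interval of -0.10 to 0.40 (adjusted p = 0.33). It was -0.01 without siE7 replicate 1, and without composition scaling COL7A1 was called higher, at 0.31 (adjusted p = 0.017). The DEGs were TINAGL1, a secreted matrix protein, at -1.37 (adjusted p = 4.9e-05), and the collagen IV chain genes COL4A3 at 1.66 and COL4A4 at 1.17 (adjusted p = 0.020 for each). Neither collagen gene reached 2 CPM in any library. Both lost the call without siNC replicate 2, siNC replicate 3 or siE7 replicate 2, and COL4A3 also without siNC replicate 1, with adjusted p up to 0.097. COL4A3 lost it by DESeq2 as well (adjusted p = 0.076), and it was not tested where at least 10 counts in every library were required. Of the rest, HSPG2 (perlecan), AGRN (agrin), COL4A2 and FRAS1 were lower, at -0.68, -0.93, -0.87 and -0.99. All of these passed the DEG limit without siE7 replicate 1 (between -1.14 and -1.01), and the HSPG2 call was lost without siNC replicate 3 (adjusted p = 0.05005).

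Of 8 other laminin receptors 6 were tested, with 4 lower and 1 higher and a median of -0.62. ITGA3 encodes the alpha3 chain of the other laminin-332 integrin, alpha3beta1, and fell from 1146 ± 39.5 to 376 ± 71.7 CPM, a log2 fold change of -1.61 (SE 0.137, adjusted p = 1.2e-05). Its partner ITGB1 was at 135 CPM in each siNC library and at 61.8, 107 and 101 CPM in siE7, a log2 fold change of -0.59 (adjusted p = 0.023). That call was lost without any 1 of the siNC libraries and without composition scaling (adjusted p up to 0.13). The fold change of the alpha chain gene was lower than that of its beta chain, as for ITGA6 and ITGB4. Counts of ITGA3 relative to ITGB1 were 8.30, 8.29 and 8.82 in siNC and 7.41, 3.16 and 3.29 in siE7. Here siE7 replicate 1 was the siE7 library nearest to siNC, unlike for ITGA6 to ITGB4, and this ratio was not tested. The other DEG was BCAM, the Lutheran receptor of laminin alpha5, at -1.33. The syndecan SDC4 was higher by 0.47 and SDC1 lower, at -0.66. Without siNC replicate 3 the adjusted p of SDC4 was 0.052.

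All 8 genes of keratin filaments and other plakins were tested, with 6 lower, none higher and a median of -0.69. The lower call of DSP (desmoplakin) was lost in 5 of the 14 alternatives (adjusted p up to 0.0995). KRT5 and KRT14 encode the keratin pair to which plectin and BP230 attach in basal cells. KRT5 was lower, with 2408 ± 73.1 CPM in siNC and 1584 ± 297 CPM in siE7 (log2 fold change -0.60, adjusted p = 0.0050). KRT14 had 9487 ± 297 CPM in siNC and 11775 ± 2108 CPM in siE7 (log2 fold change 0.31, adjusted p = 0.083). All siE7 values lay above all siNC values, and without siE7 replicate 1 its log2 fold change was 0.09. KRT14 was called higher without siE7 replicate 3 (0.39, adjusted p = 0.044) and without composition scaling (0.47, adjusted p = 0.0062). The DEGs were 3 plakins, all lower: PPL (periplakin) at -1.62, EPPK1 (epiplakin) at -1.28 and MACF1, the close relative of DST that links microtubules and actin, at -1.04. MACF1 was no longer a DEG without composition scaling (-0.87). EVPL, the envoplakin gene, had -0.20 (adjusted p = 0.27), a value close to that of PLEC, and without siE7 replicate 1 it was called lower as well, at -0.44 (adjusted p = 1.6e-08).

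Of 5 proteases known to cut laminin-332 chains 4 were tested, and all 4 were lower, with a median of -1.02. The DEGs were TLL2, a tolloid-like protease, at -1.62 (7.53 to 2.44 CPM), and the gelatinase MMP2 at -1.13 (4.43 to 2.04 CPM), both at low levels. MMP2 missed the DEG limit when siE7 replicate 3 was left out (-0.84) and when composition was not scaled (-0.96). MMP14 had -0.92 (-1.13 without siE7 replicate 1) and BMP1, which trims laminin chains, -0.47 (adjusted p = 0.021). The BMP1 call was lost in 6 of the 14 alternatives. Focal adhesions are the other, actin-bound contacts of a cell with its matrix. Of their 13 linker genes, 8 were lower, none was higher and the median was -0.69. The lower calls of TLN1 and TLN2, the talin genes, were lost in 6 and 3 of the 14 alternatives (adjusted p up to 0.13 and 0.080). The DEGs were ACTN1 (alpha-actinin-1) at -1.38 and FERMT1 (kindlin-1) at -1.21, while FERMT2 (kindlin-2) had -0.02 (adjusted p = 0.94; -0.14 to 0.10 with 1 library left out). All of these lists lay below the median of all genes, and whether the 8 genes differ from the lists was not tested.

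**Figure D5:**
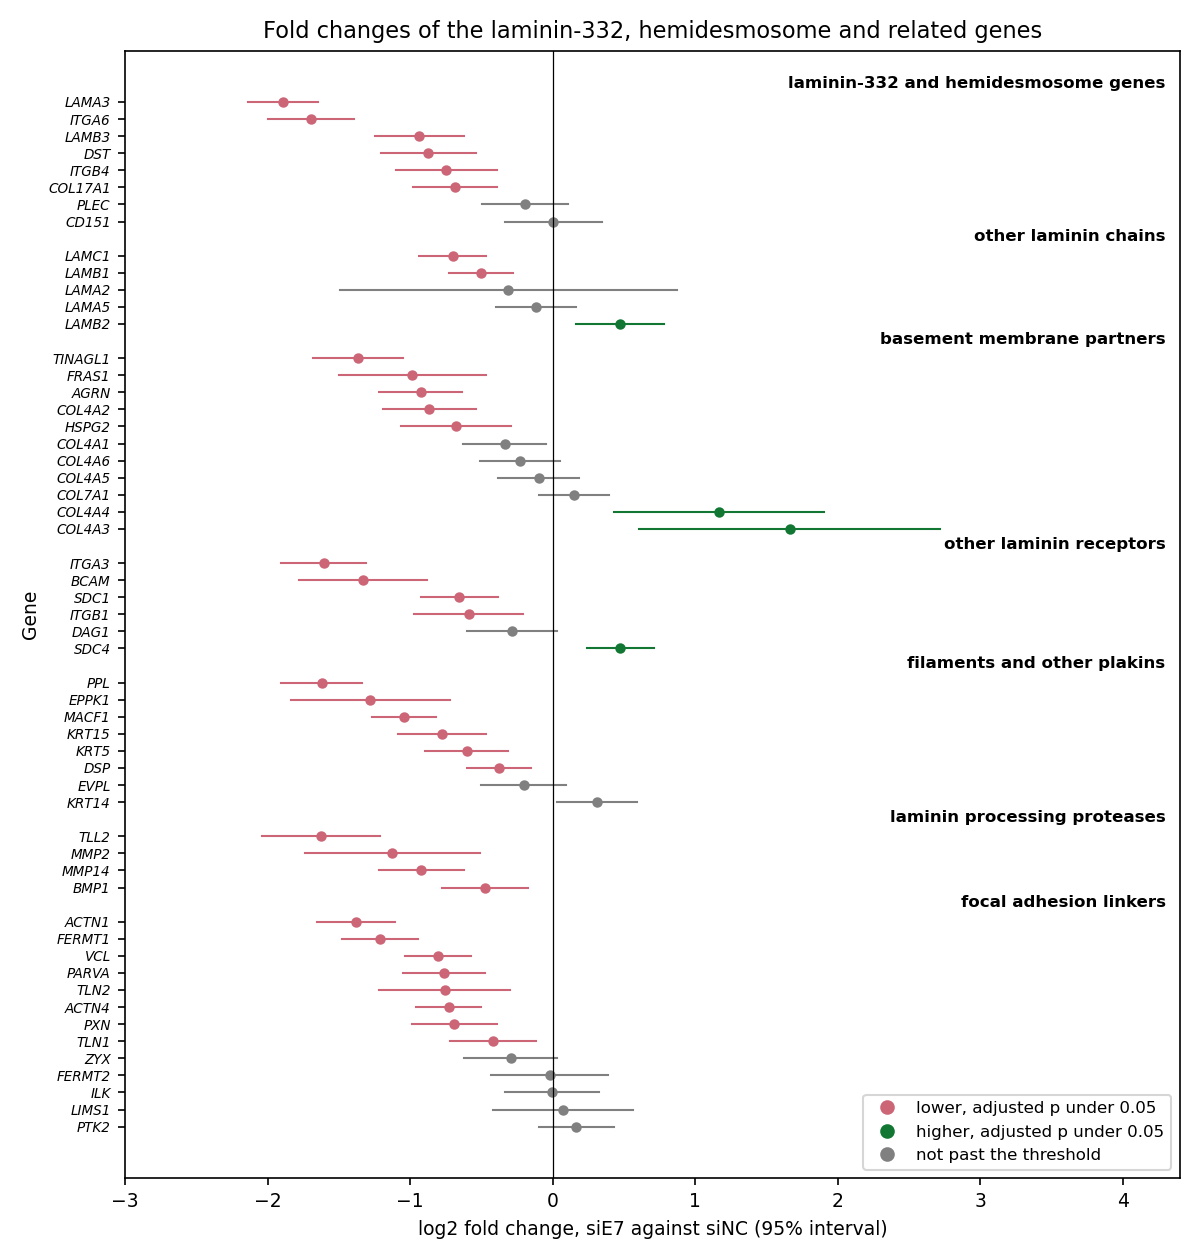
Log2 fold changes of siE7 against siNC (horizontal axis) with 95% intervals from edgeR for the laminin-332 and hemidesmosome genes and the tested genes of 6 related lists. Red marks lower, green higher and grey not past an adjusted p of 0.05. LAMA3, ITGA6, ITGA3, PPL and TLL2 form the left edge, between -1.89 and -1.61, and LAMB2, COL4A3, COL4A4 and SDC4 are the green points.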

How the data were processed

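Libraries were stranded mRNA sequencing of SCC-9 cells, 3 per group, grouped by title. The authors deposited whole-number counts of reads per gene without normalization. The submitters' processing notes name HISAT2, DESeq2 and the build GRCh38, and the counting tool and its strand setting are not given in the sources used here. Genes were kept by filterByExpr, scaled by TMM and tested by the quasi-likelihood F-test of edgeR 4.0.16 (robust; R 4.3.3) with Benjamini-Hochberg adjustment over all 14661 tested genes. Totals per library set the precision. Ratios were tested by exact permutation. Alternatives were DESeq2 1.42.0, limma-voom (limma 3.58.1), other scalings and filters, a stricter test for changes beyond 1 on the log2 scale, a replicate block and each library left out.

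The genes and lists were chosen with earlier results of these data known. Named by rule were the 8 genes, the DEGs of each list, COL7A1, ITGA3, ITGB1, KRT5, KRT14, MKI67 and the 3 nearest genes. Other genes were named after their values were seen, and 1 gene of the rule is not reported here. Positions are from GENCODE v44, which matched 25283 of 25349 identifiers (PLEC and DST with another version), and promoter windows from RefSeq, read with Python 3.11.15.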

Additional observations from a re-analysis of the deposited data

How the results depend on the processing

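The lower calls of LAMA3, LAMB3, ITGA6, ITGB4, COL17A1 and DST were kept in all 14 alternatives for each, with 6 to 8 of the 8 genes lower when 1 library was left out. The number of them that were DEGs lay between 2 and 4 under such omissions, and 4 came from the fit without siE7 replicate 1. In that fit, 4422 of all 15011 tested genes were lower and 930 were lower DEGs. CD151 went from 0.00 to -0.28 on the log2 scale without siE7 replicate 1, and lay between -0.28 and 0.11 over the omissions. In the related lists, 4 genes were higher, and 0 to 5 when 1 library was left out. The 2 higher DEGs of these lists became 1 by DESeq2, 1 with at least 10 counts in every library, 0 when changes beyond 1 were tested for, and 0 to 2 with 1 library left out. The 10 lower DEGs became 8 without composition scaling and 4 when changes beyond 1 were tested for, a stricter rule by construction. The cause of the other changes was not tested.

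The replicate numbers did not pair the libraries (correlations of deviations from -0.042 to -0.014). With a replicate block 6 of the 8 genes were lower and 2 were DEGs, as without it, and the exact p of each ratio was 0.25, the smallest that 3 pairs allow. Without composition scaling the median log2 fold change of all genes went from 0.08 to 0.25 and the share of DEGs that were higher from 60.4% to 76.2%, so the fold changes are relative to that shift. With 3 libraries per group no ratio could pass 0.05.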
